A study of Mus musculus with 9 samples.

Results

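Bromodomain genes encode readers of histone acetylation, and 9 of them were followed here: Brd2, Brd3, Brd7, Brd9, Brd1, Brpf1, Brd8, Bptf and Baz2a. They were taken by gene symbol from a table of 17596 genes in splenic B cells, with earlier results of these data known. All 9 passed the filter that left 10823 genes for testing. A bromodomain is a small protein fold with a pocket that holds an acetylated lysine of a histone tail, and it brings a larger protein or complex to acetylated chromatin. The genes fall into groups by what they carry there. Brd2 and Brd3 belong to the BET family, which recruits transcription elongation factors. Brd7 and Brd9 are subunits of forms of the SWI/SNF chromatin remodeler, Brpf1 and Brd1 are scaffolds of KAT6 and KAT7 acetyltransferase complexes, Brd8 is a subunit of the NuA4/TIP60 acetyltransferase complex, and Bptf and Baz2a are the large subunits of ISWI remodelers.

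The study measured RNA of primary mouse B cells from the spleen of control Mb1Cre mice and of Mct1f/fMb1Cre mice, in which Cre under the B lineage gene Mb1 deletes the floxed Mct1 gene. Mct1, listed under its symbol Slc16a1, encodes a transporter of lactate and pyruvate. Cre was carried by both genotypes, the floxed allele was on the C57BL/6J background, and mice of 6 to 8 weeks were used. Cells were left untreated (day 0) or stimulated for 3 days with IL-4 (50 ng/mL) plus LPS (10 μg/mL), a treatment that induces class switch recombination, with 2 Mb1Cre and 2 Mct1f/fMb1Cre libraries on day 0 and 2 Mb1Cre and 3 Mct1f/fMb1Cre libraries on day 3. The labels do not say whether libraries of a group came from separate mice, so the tests measure the spread between these libraries, which may be technical.

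Values are FPKM, fragment counts scaled to transcript length and to all mapped fragments, so levels can be compared between genes. The files used hold no read counts, so sequencing depth is unknown for every library. The FPKM summed to between 477079 and 491459 in the day 0 libraries and between 547355 and 563586 in the day 3 libraries. Slc16a1 checked the genotype labels of day 3. On day 3 it was at 22.58 and 22.95 FPKM in the Mb1Cre libraries and at 10.82, 9.81 and 9.5 FPKM in the Mct1f/fMb1Cre libraries, a log2 fold change of -1.11 (limma, adjusted p = 9.07e-06). On day 0 it was low in both genotypes, between 3.71 and 4.33 FPKM, and the libraries of the genotypes overlapped. The genotype labels of day 0 were therefore not checked by this gene.

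The 6 B cell marker genes examined were present in all 9 libraries, with sums of 4183 to 4612 FPKM on day 0 and 2182 to 2271 FPKM on day 3. Markers of myeloid, erythroid, T and NK cells, of which 17 of 18 were in the table, summed to between 1158 and 2000 FPKM on day 0 and to between 28.37 and 37.34 FPKM on day 3. Of these, Lyz2, a myeloid lysozyme, alone had 613.58 to 809.17 FPKM on day 0 and 10.04 to 20.36 FPKM on day 3. The Y-linked gene Ddx3y was at 0.24 and 0.02 FPKM in the Mb1Cre day 0 libraries, at 31.13 and 0.2 FPKM in the Mct1f/fMb1Cre day 0 libraries, and between 14.69 and 16.91 FPKM in all 5 day 3 libraries. Both sets of values therefore moved with the day, and their part in the differences between days given below was not tested. In Mb1Cre B cells, day and the level of Y-linked transcripts cannot be told apart. In bulk RNA, fewer cells of a type and less RNA per cell cannot be told apart either.

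Among the 9 genes, Brd2 had by far the highest level. It had 124.43 and 124.52 FPKM in Mb1Cre and 121.85 and 121.36 FPKM in Mct1f/fMb1Cre B cells on day 0, above 95.4% and 95.2% of the tested genes in these groups. Baz2a came next on day 0, with 44.51 and 42.85 FPKM in Mb1Cre and 41.97 and 40.71 FPKM in Mct1f/fMb1Cre B cells. It was followed by Brd7, with 40.93 and 39.59 FPKM in Mb1Cre and 39.41 and 40.48 FPKM in Mct1f/fMb1Cre B cells. Within each genotype the libraries of these 3 genes did not overlap with one another. Bptf and Brd9, at 29.2 to 31.37 FPKM over the 4 day 0 libraries, overlapped in both genotypes, and so did Brd8 and Brd1 in Mct1f/fMb1Cre B cells. Brpf1 and Brd3 closed the order, with Brd3 at 19.23 to 20.64 FPKM.

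On day 3 the order was changed. Brd2 was still first, at 106.45 and 106.24 FPKM in Mb1Cre and 117.08, 109.49 and 112.43 FPKM in Mct1f/fMb1Cre B cells. Brd7 now stood ahead of Baz2a in both genotypes, without overlap between them, and Brd8 followed them. The other 5 genes lay close together, from 15.26 FPKM for Brd1 in an Mb1Cre library to 19.73 FPKM for Bptf in an Mct1f/fMb1Cre library, and most neighbours in this range overlapped. Brd1 was last in Mb1Cre B cells, and Brd1 and Brd3 overlapped at the bottom in Mct1f/fMb1Cre B cells. As a share of the summed FPKM of the 9 genes, Brd2 took 34% to 34.3% in the day 0 libraries and 37.5% to 39.5% in the day 3 libraries, Brd7 took 10.9% to 11.4% and then 13.6% to 14.1%, and Baz2a took 11.5% to 12.2% and then 8.66% to 9.53%.

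**Figure D1:**
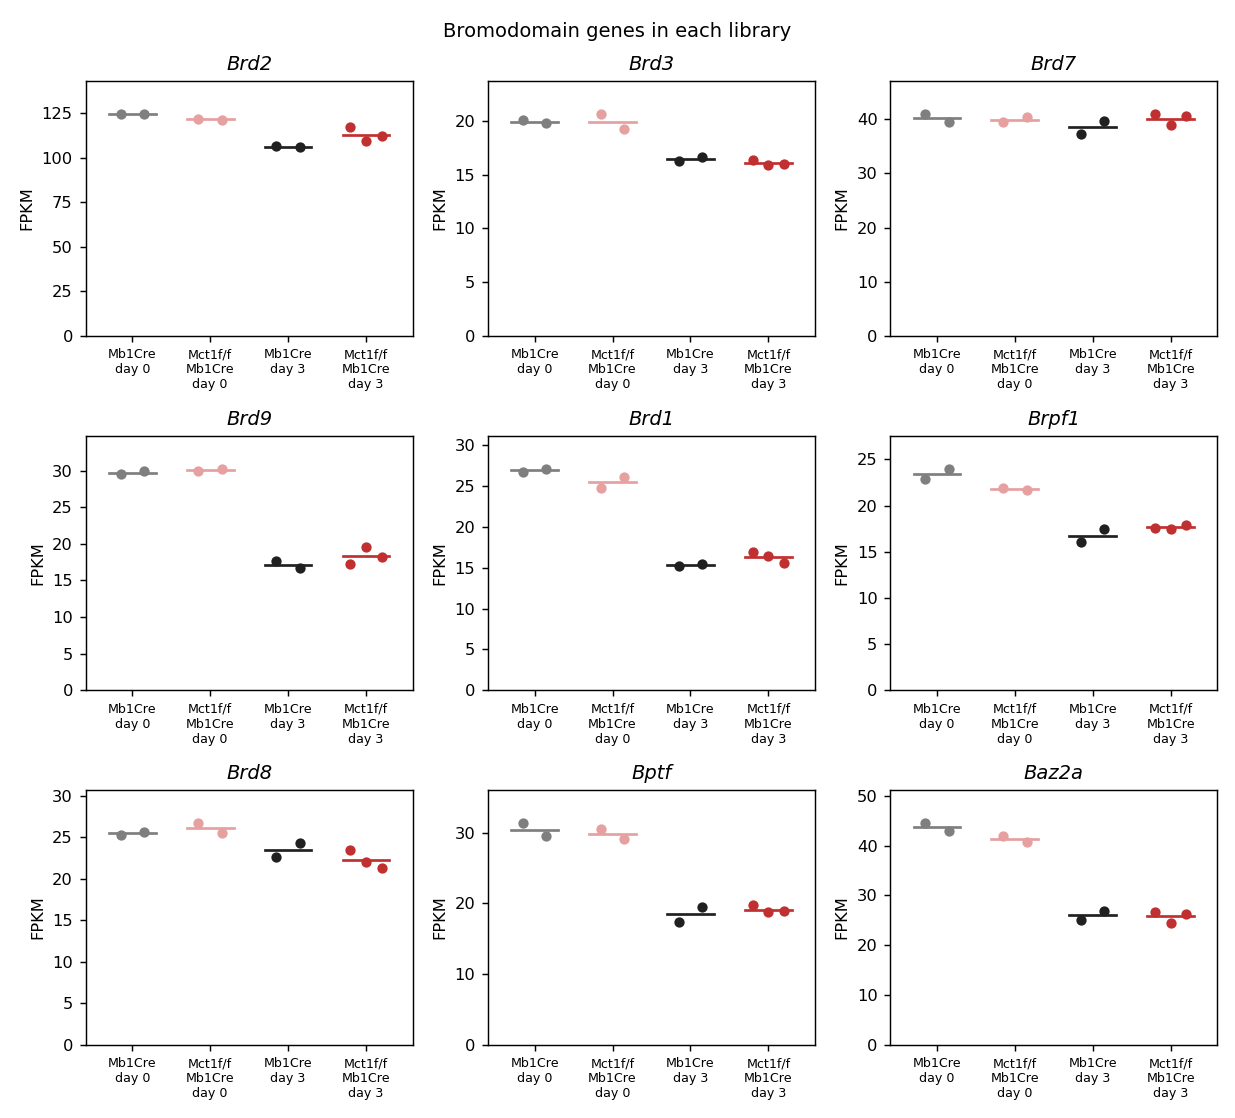
FPKM of each of the 9 bromodomain genes (vertical axes, from 0) in every library, by genotype and day; points are libraries and lines are group means. Brd1, Brd9, Bptf and Baz2a sit clearly lower on day 3 in both genotypes, whereas Brd7 stays between 37.24 and 40.93 FPKM in all 9 libraries.

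The first question was which of these genes changed when B cells were activated. Brd1, Brd9, Baz2a and Bptf fell in both genotypes, by 39.3% to 43% of the mean FPKM in Mb1Cre and by 35.8% to 38.9% in Mct1f/fMb1Cre B cells. Brpf1, Brd3 and Brd2 fell by less, and Brd7 did not pass the test in either genotype. No gene of the 9 was called higher. A gene was called when its adjusted p was under 0.05 and its log2 fold change of FPKM + 1 was above 0.5 in size, with limma fitted over all 10823 genes. The 4 calls of 9 in Mb1Cre B cells stand beside 33% of all tested genes called lower and 24.8% called higher, and the 4 of 9 in Mct1f/fMb1Cre B cells beside 33.2% and 23.4%. By the adjusted p alone, 7 of 9 were lower in Mb1Cre and 8 of 9 in Mct1f/fMb1Cre B cells, beside 47.5% and 49.1% of all genes. The median log2 fold change over the 9 genes was -0.46 in Mb1Cre and -0.29 in Mct1f/fMb1Cre B cells, against -0.12 and -0.14 over all genes tested.

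**Figure D2:**
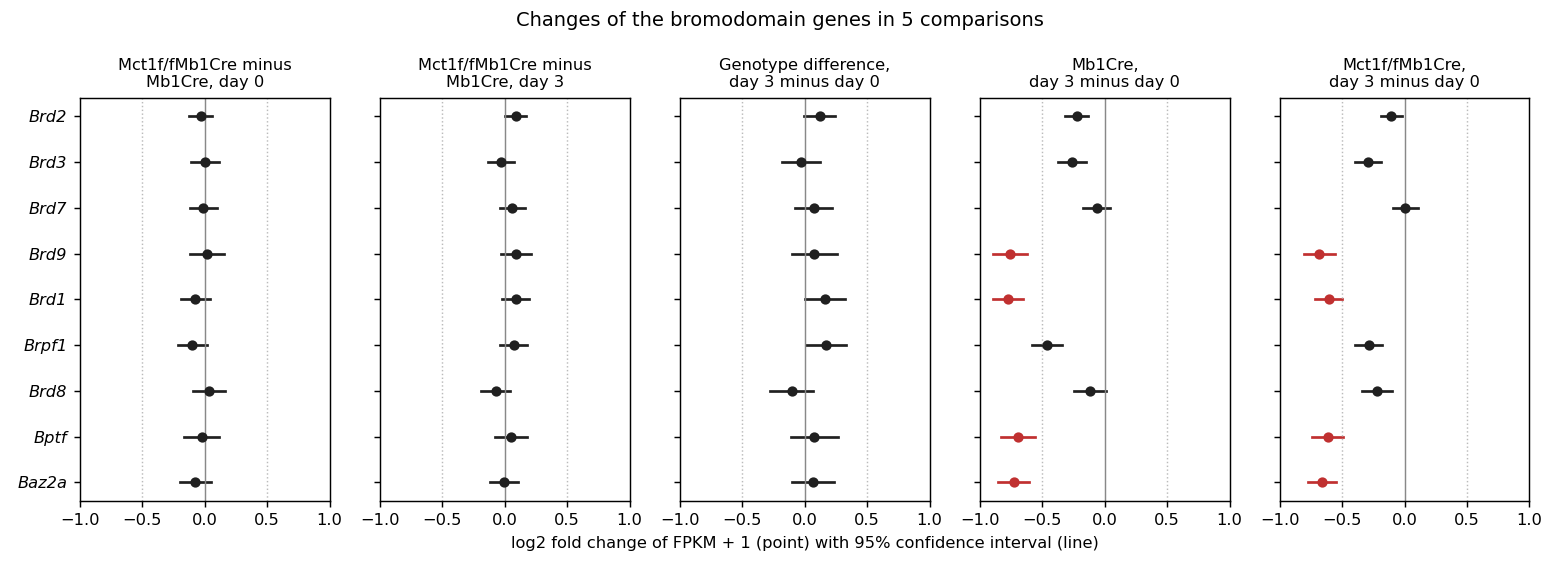
Log2 fold changes of FPKM + 1 (horizontal axes) of the 9 bromodomain genes in the 2 genotype comparisons, their interaction and the 2 comparisons of day 3 with day 0; points are estimates, lines 95% confidence intervals, dotted lines the limits of 0.5, and red marks the called genes. The 4 red genes, Brd9, Brd1, Bptf and Baz2a, have log2 fold changes between -0.61 and -0.77 on activation, and no gene is red in the genotype comparisons.

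Baz2a and Bptf are the large subunits of ISWI remodelers. Baz2a, known as TIP5 in the nucleolar remodeling complex that silences ribosomal RNA genes, had 24.99 and 26.95 FPKM in Mb1Cre and 26.71, 24.52 and 26.21 FPKM in Mct1f/fMb1Cre B cells on day 3. Each of these values was below all 4 day 0 values. The log2 fold change was -0.73 (SE 0.06, adjusted p = 2.53e-07) in Mb1Cre and -0.66 (SE 0.05, adjusted p = 2.53e-07) in Mct1f/fMb1Cre B cells. Bptf, which reads a methylated and an acetylated lysine within the NURF remodeler, had 31.37 and 29.53 FPKM in Mb1Cre and 30.54 and 29.2 FPKM in Mct1f/fMb1Cre B cells on day 0. On day 3 it had 17.38 and 19.56 FPKM in Mb1Cre and 19.73, 18.8 and 18.89 FPKM in Mct1f/fMb1Cre B cells. Again the days did not overlap, and its log2 fold change was -0.69 in Mb1Cre and -0.62 in Mct1f/fMb1Cre B cells (adjusted p = 9.58e-07 and 1.14e-06).

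Brd1 and Brpf1 are paralogous scaffolds that hold a KAT6 or KAT7 acetyltransferase on chromatin. Brd1 had 26.71 and 27.12 FPKM in Mb1Cre and 24.8 and 26.16 FPKM in Mct1f/fMb1Cre B cells on day 0. On day 3 it had 15.26 and 15.4 FPKM in Mb1Cre and 16.98, 16.46 and 15.62 FPKM in Mct1f/fMb1Cre B cells. All day 3 values were below all day 0 values, and the log2 fold changes were -0.77 (SE 0.05, adjusted p = 1.01e-07) and -0.61 (SE 0.05, adjusted p = 3.39e-07). Brpf1 fell from 22.84 and 23.99 FPKM to 16.04 and 17.44 FPKM in Mb1Cre B cells, a log2 fold change of -0.46 (adjusted p = 8.82e-06). In Mct1f/fMb1Cre B cells it fell from 21.88 and 21.65 FPKM to 17.56, 17.51 and 17.89 FPKM, a log2 fold change of -0.29 (adjusted p = 0.000195). The days did not overlap, but both changes were under the limit of 0.5.

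Brd7 and Brd9, which sit in different forms of SWI/SNF (Brd7 in PBAF and Brd9 in the noncanonical form), differed in their course. Brd9 had 29.59 and 29.91 FPKM in Mb1Cre and 29.9 and 30.28 FPKM in Mct1f/fMb1Cre B cells on day 0, and 17.66 and 16.67 FPKM and 17.27, 19.64 and 18.2 FPKM on day 3. Its log2 fold change was -0.76 in Mb1Cre and -0.68 in Mct1f/fMb1Cre B cells (adjusted p = 3.5e-07 and 3.65e-07). Brd7 had 37.24 and 39.73 FPKM in Mb1Cre and 40.91, 38.93 and 40.54 FPKM in Mct1f/fMb1Cre B cells on day 3, and the days overlapped in both genotypes. Its log2 fold change was -0.06, with a 95% interval from -0.17 to 0.04, in Mb1Cre B cells (adjusted p = 0.239). In Mct1f/fMb1Cre B cells it was 0.01, from -0.09 to 0.10 (adjusted p = 0.9). Changes of Brd7 as large as those of Brd9 lay outside these intervals.

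The BET genes Brd2 and Brd3 fell by less than the limit. Brd2 was lower on day 3 by a log2 fold change of -0.23 (SE 0.04, adjusted p = 0.000422) in Mb1Cre and -0.11 (SE 0.04, adjusted p = 0.024) in Mct1f/fMb1Cre B cells, and the days did not overlap. Brd3 had 20.08 and 19.79 FPKM in Mb1Cre and 20.64 and 19.23 FPKM in Mct1f/fMb1Cre B cells on day 0, and 16.26 and 16.65 FPKM and 16.39, 15.87 and 16.04 FPKM on day 3. The log2 fold change of Brd3 was -0.26 in Mb1Cre and -0.29 in Mct1f/fMb1Cre B cells (adjusted p = 0.000599 and 0.000131). Brd2 thus had 5.9 to 6.31 times the FPKM of Brd3 in the day 0 libraries and 6.38 to 7.14 times in the day 3 libraries. Exons annotated for Brd2 overlap those of H2-DMa, an MHC class II chaperone gene on the opposite strand, over 360 bases, which is 4.6% of the exon bases annotated for Brd2, and an antisense gene that is not in the table, CR974462.3, overlaps them over 405 bases (5.18%). H2-DMa had 227.01 to 237.38 FPKM on day 0 and 289.11 to 307.49 FPKM on day 3, and, as it is not stated that strand was used, reads from the shared bases cannot be assigned to either gene. H2-DMa was named for this overlap after its values were seen.

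Brd8 lies between these cases. It had 25.31 and 25.64 FPKM in Mb1Cre and 26.68 and 25.47 FPKM in Mct1f/fMb1Cre B cells on day 0. On day 3 it had 22.61 and 24.29 FPKM in Mb1Cre and 23.42, 22.06 and 21.24 FPKM in Mct1f/fMb1Cre B cells, all below the day 0 values. The log2 fold change was -0.12 in Mb1Cre B cells, which did not pass (adjusted p = 0.0845), and -0.22 in Mct1f/fMb1Cre B cells, which did (adjusted p = 0.00232). The interaction of genotype and day was -0.11 for Brd8 (adjusted p = 0.44), so the genotypes were not shown to differ in this change. The groups of the 2 days did not overlap, in the lower direction, for 8 of 9 genes in each genotype, where 51.5% of all genes tested had the same in Mb1Cre and 51.5% in Mct1f/fMb1Cre B cells.

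Because the libraries of the 2 days differed in their sums, the values were also scaled in 3 other ways. On activation, all genes together had a median log2 fold change of -0.12 in Mb1Cre B cells as deposited, -0.31 after scaling to a common total, 0.07 after median-of-ratios scaling and 0.02 after quantile normalization. Brd1, Brd9, Baz2a and Bptf stayed lower on day 3 under each, and relative to the median of all genes they were lower by 0.56 to 0.78 in Mb1Cre and by 0.46 to 0.72 in Mct1f/fMb1Cre B cells on the log2 scale. After median-of-ratios scaling, 3 of these genes were still called in Mb1Cre B cells and 0 in Mct1f/fMb1Cre B cells, where the log2 fold changes were -0.40 to -0.47 and the adjusted p at most 2.79e-05. The changes of Brd2, Brd3 and Brd8 depended on the scaling, since with the median of ratios Brd2 was at -0.01 and 0.11, Brd3 at -0.06 and -0.08, and Brd8 at 0.09 and -0.01 in Mb1Cre and Mct1f/fMb1Cre B cells. Brpf1 was then at -0.26 (adjusted p = 0.0011) and -0.08 (adjusted p = 0.162). Brd7 was then higher on day 3, at 0.14 (adjusted p = 0.0144) and 0.22 (adjusted p = 0.000585). With a common total Brd7 was instead lower, at -0.26 (adjusted p = 0.00117) and -0.17 (adjusted p = 0.0112) by limma. After quantile normalization it was at -0.14 (adjusted p = 0.0227) and -0.05 (adjusted p = 0.308) by limma, so its direction depended on the scaling.

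**Figure D3:**
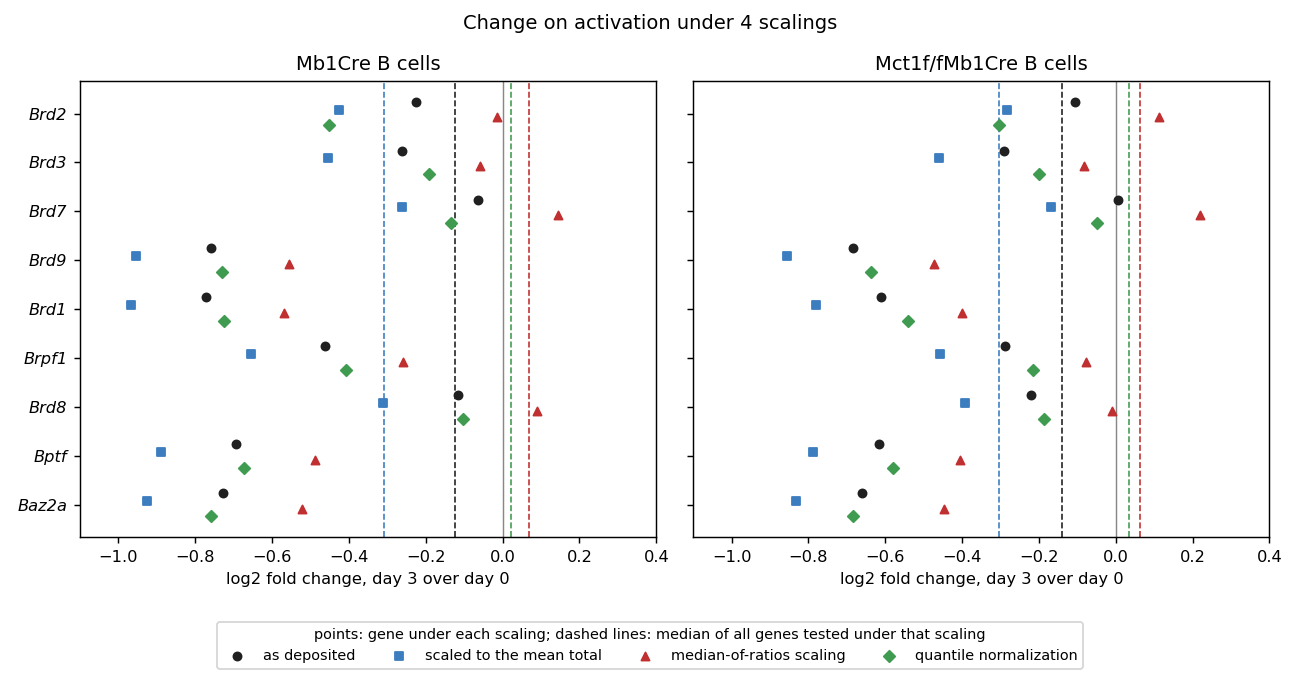
Log2 fold change from day 0 to day 3 (horizontal axes) of the 9 bromodomain genes in Mb1Cre and Mct1f/fMb1Cre B cells with the FPKM as deposited and under 3 other scalings; dashed lines mark the median of all genes tested under each. Brd1, Brd9, Baz2a and Bptf lie left of the median of all genes under every scaling. Brd7 in both genotypes, Brd8 in Mb1Cre B cells and Brd2 in Mct1f/fMb1Cre B cells lie on either side of 0 depending on the scaling.

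The Y-linked transcripts allowed 1 further comparison. Among the day 0 libraries, Mct1f/fMb1Cre replicate 1 had Ddx3y at 31.13 FPKM and the Y-linked gene Uty at 9.9 FPKM, whereas the other 3 had Ddx3y at no more than 0.24 FPKM and Uty at 2.09 to 2.66 FPKM. All day 3 libraries had Uty at 6.78 to 8.53 FPKM. With that library as the only Mct1f/fMb1Cre day 0 library, the log2 fold changes on activation were -0.57 for Brd1 and -0.68 for Brd9. They were -0.65 for Bptf, -0.68 for Baz2a and -0.11 for Brd2. That library also had the most S100a8 and S100a9, myeloid genes, on day 0, at 303.94 and 513.53 FPKM. The other day 0 libraries had 106.67 to 130.73 FPKM and 165.74 to 231.87 FPKM. Its Ddx3y was above the 14.69 to 16.91 FPKM of the day 3 libraries. The part of the Y-linked level in the change between days was therefore not tested.

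The promoters of the genes that fell and of 2 genes that did not reach the limit are shown so that their letters can be compared. Each is the 250 bases upstream of a RefSeq transcription start, from the RefSeq table for GRCm38.p6, printed 5′ to 3′ on the strand of the gene. All 9 genes matched the table by symbol, and the windows of 6 of them are shown. Capitals mark matches on either strand to a GC box, an E-box, an ETS motif or an NRF1 motif, whose letters are given after the windows.
Brd1, chr15:88734220-88734469, reverse strand: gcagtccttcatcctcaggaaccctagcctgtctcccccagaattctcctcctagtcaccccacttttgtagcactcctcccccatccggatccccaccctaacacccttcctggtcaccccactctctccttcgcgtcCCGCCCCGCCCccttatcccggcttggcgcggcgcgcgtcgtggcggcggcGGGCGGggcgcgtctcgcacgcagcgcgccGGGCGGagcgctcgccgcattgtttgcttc
Brd9, chr13:73937561-73937810, forward strand: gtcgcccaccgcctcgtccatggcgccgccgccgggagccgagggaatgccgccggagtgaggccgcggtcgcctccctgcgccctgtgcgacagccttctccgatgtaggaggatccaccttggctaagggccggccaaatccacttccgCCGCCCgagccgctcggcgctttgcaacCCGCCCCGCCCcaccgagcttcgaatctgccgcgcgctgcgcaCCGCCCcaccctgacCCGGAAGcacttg
Bptf, chr11:107132148-107132397, reverse strand: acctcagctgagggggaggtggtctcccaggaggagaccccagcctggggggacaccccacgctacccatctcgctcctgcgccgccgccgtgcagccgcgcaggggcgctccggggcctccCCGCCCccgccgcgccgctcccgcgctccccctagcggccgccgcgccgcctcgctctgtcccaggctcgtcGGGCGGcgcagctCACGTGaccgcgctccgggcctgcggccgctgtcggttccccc
Baz2a, chr10:128092533-128092782, forward strand: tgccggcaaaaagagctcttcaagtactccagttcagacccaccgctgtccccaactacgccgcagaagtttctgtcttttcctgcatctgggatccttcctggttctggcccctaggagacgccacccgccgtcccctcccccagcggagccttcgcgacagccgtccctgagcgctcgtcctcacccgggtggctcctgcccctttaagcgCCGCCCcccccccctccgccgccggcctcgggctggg
Brd7, chr8:88362173-88362422, reverse strand: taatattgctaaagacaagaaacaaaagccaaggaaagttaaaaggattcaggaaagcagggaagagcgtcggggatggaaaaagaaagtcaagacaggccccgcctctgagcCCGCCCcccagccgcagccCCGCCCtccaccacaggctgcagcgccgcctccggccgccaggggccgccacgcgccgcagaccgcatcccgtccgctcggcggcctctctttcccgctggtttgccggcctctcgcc
Brd2, chr17:34122608-34122857, reverse strand: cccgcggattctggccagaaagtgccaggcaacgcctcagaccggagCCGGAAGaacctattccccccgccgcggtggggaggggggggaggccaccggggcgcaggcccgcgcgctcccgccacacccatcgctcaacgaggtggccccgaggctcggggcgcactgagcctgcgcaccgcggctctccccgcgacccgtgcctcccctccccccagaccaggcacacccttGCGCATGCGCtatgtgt

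Of the 4 genes that were called lower, Brd1 and Brd9 had 4 GC boxes each, Bptf had 2 and Baz2a had 1, and Brd7, which was not called, had 2. Brd2 had no GC box in the window shown. Further RefSeq windows of Brd2, not shown, lie at 34121748 to 34121997, with 1 GC box, and at 34119901 to 34120150, with 0. They had 65.2% and 56.4% of G and C, and 12 and 18 CpG dinucleotides. A second window of Brd9, not shown, lies at 73937578 to 73937827 and has 4 GC boxes. The windows of Brd3 and Brpf1, which were not called either, are not shown and had 1 GC box each. The window of Baz2a lies inside its GENCODE gene model, which starts at 128091577. GC boxes, searched as GGGCGG, were found in 32.7% of the 32851 promoter windows of the same length. An E-box, searched as CACGTG, stood in the window of Bptf and is found in 6.02% of all windows. An ETS motif, searched as CCGGAAG, stood in those of Brd9 and Brd2 and is found in 6.91% of all windows. The NRF1 motif was searched as GCGCATG, which 3.24% of all windows hold, and its 2 matches in Brd2 overlap on opposite strands. The letters CCAAT, present in 33.8% of all windows, had no match in these 6. In Brd9 and in Brd1, 2 of the GC boxes overlap each other. All 6 windows were rich in G and C, with 64% to 79.2% against a median of 52.4% over all windows, and held 20 to 34 CpG dinucleotides against a median of 6. These matches describe letters only.

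On GRCm38 the GENCODE annotation places Brd2 on chromosome 17 at 34112023 to 34122634, Brd3 on chromosome 2 at 27445579 to 27507662, Brd7 on chromosome 8 at 88331039 to 88362194 and Brd1 on chromosome 15 at 88687034 to 88734233, all on the reverse strand. Bptf lies on the reverse strand of chromosome 11 at 107033081 to 107132127. Brd9 lies on chromosome 13 at 73937811 to 73960895, Brpf1 on chromosome 6 at 113307137 to 113324860 and Baz2a on chromosome 10 at 128091577 to 128129303, these 3 on the forward strand. Bptf is the longest gene model, with a principal transcript of 28 exons and 2921 codons, and Brd9 has the shortest coding sequence, with 597 codons. An antisense gene, Gm15492, overlaps exons of Brpf1 over 255 bases and is not in the table.

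The second question was whether loss of Mct1 changed these genes in activated B cells. None of the 9 was called on day 3, where 2.42% of all tested genes were called. By limma, 1 of 9, Brd2, had an unadjusted p under 0.05. The log2 fold changes of Mct1f/fMb1Cre over Mb1Cre B cells ran from -0.07 for Brd8 to 0.09 for Brd9, and the lowest and highest bounds of the 9 confidence intervals were -0.19 and 0.21, so that changes beyond the limit of 0.5 lay outside all of them. Brd2 had a log2 fold change of 0.09, an interval from 0.001 to 0.17 and an adjusted p = 0.167 in limma. Brd2, Brd1 and Brpf1 were higher in every Mct1f/fMb1Cre library than in every Mb1Cre library on day 3, as were 21% of all tested genes. Of the markers of other cell types, the myeloid genes Lyz2 and Adgre1 were called higher in Mct1f/fMb1Cre B cells on day 3, by 0.71 (adjusted p = 0.0015) and 0.68 (adjusted p = 0.000425) in limma. Their levels were 10.04 to 11.48 FPKM against 16.78 to 20.36 FPKM for Lyz2 and 0.44 to 0.58 FPKM against 1.37 to 1.5 FPKM for Adgre1, and their part in the small differences of the 9 genes was not tested. Other myeloid markers went both ways between the genotypes on day 3. Csf1r (0.27) and Itgam (0.36) were higher, S100a8 (-0.32) and S100a9 (-0.82) were lower, and none of these was called. The sum of the 9 genes was 273.89 and 282.93 FPKM in Mb1Cre and 296.05, 283.28 and 287.06 FPKM in Mct1f/fMb1Cre B cells on day 3.

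None of the 9 genes was called between the genotypes on day 0 either, where 0.277% of all tested genes were called, and 0 of 9 had an unadjusted p under 0.05. The log2 fold changes ran from -0.10 for Brpf1 to 0.03 for Brd8, with bounds of the intervals from -0.22 to 0.16. Brd1, Brd2, Brpf1 and Baz2a were lower in both Mct1f/fMb1Cre libraries than in both Mb1Cre libraries on day 0, as were 19.7% of all tested genes. The 2 Mct1f/fMb1Cre libraries on day 0 differed in the level of Y-linked transcripts, with Ddx3y at 31.13 FPKM in replicate 1 and 0.2 FPKM in replicate 2. The erythroid gene Hba-a1 was called higher in Mct1f/fMb1Cre B cells on day 0, by 0.64 on the log2 scale (adjusted p = 0.0293 by limma). Without replicate 1, again 0 of 9 genes were called.

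Brd1, Brd2 and Brpf1 thus lay below the control on day 0 and above it on day 3. The interaction tests this directly, as the genotype difference on day 3 minus that on day 0, and 0 of 9 genes were called, where 3.23% of all genes were called. Brpf1 had an interaction of 0.17 (95% interval 0.01 to 0.33, adjusted p = 0.164) and Brd1 one of 0.16 (0.003 to 0.32, adjusted p = 0.19) by limma, and these 2 genes had an unadjusted p under 0.05. For Brd2 it was 0.12 (adjusted p = 0.222). Among the markers of other cell types, Lyz2 (0.57) and Adgre1 (0.51) were called higher and Hba-a1 (-0.91) lower in the interaction. The myeloid genes S100a8 and S100a9 went against Lyz2 and Adgre1, with higher Mct1f/fMb1Cre means on day 0 and lower ones on day 3. For S100a8 these were 214.63 FPKM against 118.7 FPKM in Mb1Cre B cells on day 0, and 0.537 against 0.875 FPKM on day 3. For S100a9 they were 350.5 against 198.8 FPKM and 0.637 against 1.595 FPKM. The interactions of Brpf1, Brd1 and Brd2 are differences between the smaller fall in Mct1f/fMb1Cre and the larger fall in Mb1Cre B cells. None of them passed the adjustment over all genes. The 9 genes together fell to 76.4% of their day 0 sum in Mb1Cre and to 81.1% in Mct1f/fMb1Cre B cells.

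The genes that work with these readers were examined as lists. In every list 0 genes were called between the genotypes on day 3, on day 0 or in the interaction. By the adjusted p alone on day 3, 2 of the 29 other bromodomain genes were higher and 2 lower. The P-TEFb, NuA4/TIP60 and SWI/SNF lists described below had 1 higher and 1 lower each. Of all tested genes, 6.03% were higher and 9.21% lower by this measure. In the interaction, 2 other bromodomain genes were higher and 2 lower by it, beside 3.82% and 5.61%. On activation many list genes were called, in both directions. The counts stand beside 24.8% of all tested genes called higher and 33% called lower in Mb1Cre and 23.4% and 33.2% in Mct1f/fMb1Cre B cells. The other bromodomain genes, 29 of 31 tested, had 4 called higher and 14 called lower in Mb1Cre B cells and 5 higher and 14 lower in Mct1f/fMb1Cre B cells, with a median log2 fold change of -0.39 and -0.49. With the median of ratios this became 6 higher and 11 lower in Mb1Cre and 6 higher and 10 lower in Mct1f/fMb1Cre B cells. Brwd1, a bromodomain and WD repeat protein known for its part in immunoglobulin light chain recombination, fell from between 39.23 and 43.61 FPKM to between 2.72 and 3.18 FPKM, a log2 fold change of -3.50 in Mb1Cre and -3.28 in Mct1f/fMb1Cre B cells. Cecr2 (-1.76 and -1.84) and Baz2b (-1.68 and -1.66) also fell, and both are partners of ISWI ATPases like Bptf and Baz2a. Sp140, an immune chromatin reader, rose by 1.56 and 1.20.

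The 12 P-TEFb and elongation genes, which act with BET proteins, had 2 higher and 6 lower in Mb1Cre and 1 higher and 4 lower in Mct1f/fMb1Cre B cells. These counts depended on the scaling, with 2 and 7 in Mb1Cre and 1 and 7 in Mct1f/fMb1Cre B cells after scaling to a common total, but 3 and 3 and 2 and 3 after median-of-ratios scaling. The elongation factor gene Ell2 rose by 1.46 and 1.39, and Ccnt2, a cyclin of P-TEFb, had log2 fold changes of -1.22 and -1.13. Of the 6 KAT6 and KAT7 partners of Brpf1 and Brd1, 4 were lower in Mb1Cre and 3 in Mct1f/fMb1Cre B cells and none was called higher, with a median of -0.82 and -0.71. These were the acetyltransferases Kat6a (-1.20 and -1.06) and Kat6b (-0.96 and -0.97) and the reader subunit Ing4 (-1.66 and -1.56), with Ing5 called in Mb1Cre B cells only, at -0.67, and at -0.44 in Mct1f/fMb1Cre B cells. For Ing5 the difference between the genotypes was not called in the interaction. Ing5 was called in neither genotype after median-of-ratios scaling or quantile normalization, at -0.48 in Mb1Cre B cells under both, and in both genotypes with a common total, at -0.86 and -0.60.

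The 16 NuA4/TIP60 partners of Brd8 divided, with 4 higher and 3 lower in each genotype, and 4 and 6 in Mb1Cre and 4 and 5 in Mct1f/fMb1Cre B cells with a common total. Morf4l2 (1.55 and 1.21) and the ATPases Ruvbl1 (1.14 and 1.20) and Ruvbl2 (1.11 and 1.07) rose, and the scaffold Epc1 fell (-1.35 and -1.19). The 13 SWI/SNF partners of Brd7 and Brd9 had 2 higher and 5 lower in Mb1Cre and 3 higher and 5 lower in Mct1f/fMb1Cre B cells. With a common total they had 1 higher and 7 lower in each genotype, and with the median of ratios 3 and 3 in Mb1Cre and 3 and 2 in Mct1f/fMb1Cre B cells. Phf10, a PBAF subunit as Brd7 is, rose by 1.90 and 1.52, and Bicral, a subunit of the noncanonical form as Brd9 is, had log2 fold changes of -1.85 and -1.66. The ISWI partners of Bptf and Baz2a, 5 of 6 tested, went mostly the other way from Bptf and Baz2a, with 3 higher and 0 lower in Mb1Cre and 2 higher and 1 lower in Mct1f/fMb1Cre B cells. With a common total they had 2 higher and 1 lower in each. Rbbp7 and Rbbp4, histone chaperones of many complexes, rose by 1.42 and 0.72 in Mb1Cre and by 1.34 and 0.74 in Mct1f/fMb1Cre B cells. The ATPase Smarca5 was called higher in Mb1Cre B cells (0.57) and stood at 0.48 in Mct1f/fMb1Cre B cells, and it was not called in either genotype after scaling to a common total or quantile normalization. Under the 3 other scalings the genes named from these lists kept their direction.

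**Figure D4:**
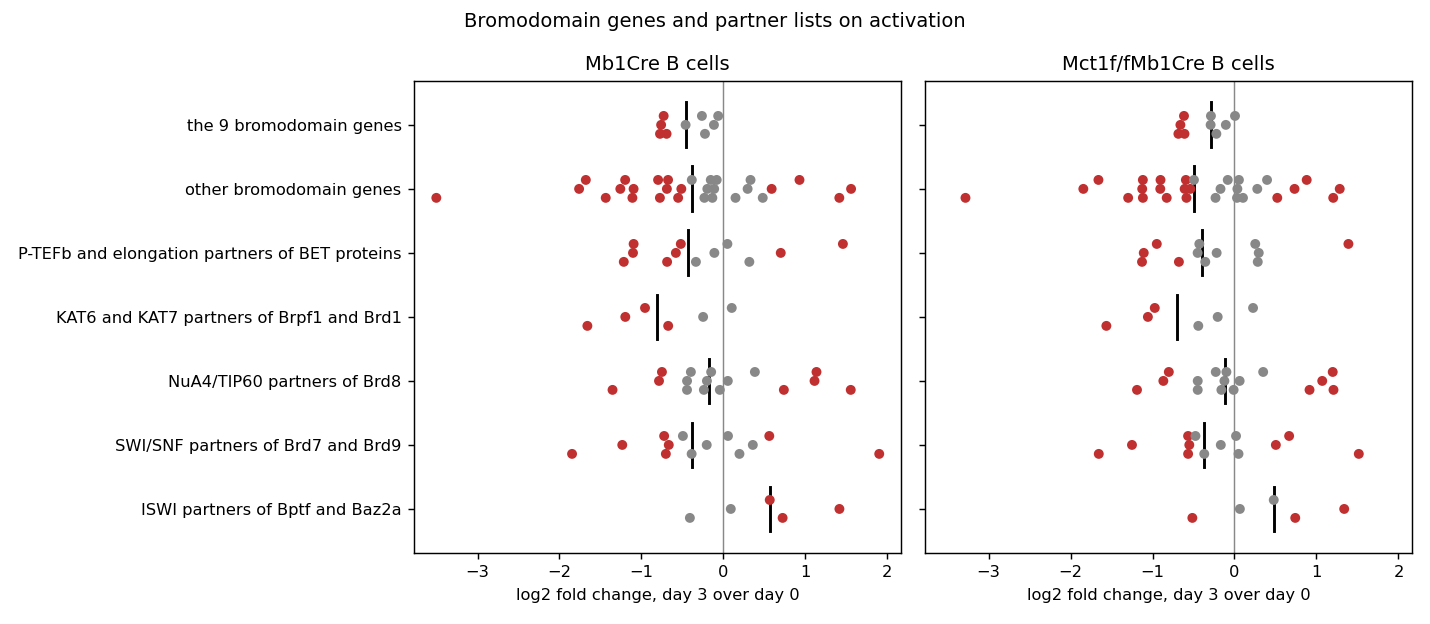
Log2 fold change from day 0 to day 3 (horizontal axes) of the 9 bromodomain genes and of the genes of 6 related lists in Mb1Cre and Mct1f/fMb1Cre B cells; points are genes, red ones were called and black bars are list medians. The 9 genes span -0.77 to 0.01, whereas the other bromodomain genes span from Brwd1 at -3.50 to Sp140 at 1.56.

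For each of the 9 genes, 1 gene outside the group was taken by Pearson's r of the log2 values, as a description. It was the gene with the most similar pattern over the 9 libraries, whatever its level. The libraries of the 2 days lie apart, so these values mostly reflect the day. The partners were Tob1 for Brd1 (0.999), Lpl for Baz2a (0.999), Ago3 for Bptf (0.999), Pdzd8 for Brd3 (0.998), Irf2bpl for Brd9 (0.997), Taf4 for Brpf1 (0.993), Mbd5 for Brd2 (0.985), Ythdc2 for Brd8 (0.985) and Wipf1 for Brd7 (0.929). Of these, Lpl was at only 0.12 to 0.33 FPKM in the day 3 libraries. The number of tested genes with an r of at least 0.9 was 4334 for Baz2a and 4295 for Bptf, but 461 for Brd8 and 2 for Brd7. Among the 9 genes themselves r was highest for Bptf with Baz2a (0.994), and Brd7 had r between 0.215 and 0.555 with the other 8.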

How the data were processed

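RNA sequencing had been done on 9 libraries of splenic B cells, grouped by genotype and day from their labels. The authors deposited FPKM values, 1 row per gene, normalized to gene length and mapped fragments. Per the study's methods and labels, the sequencing institute assembled and analysed the data. Bowtie2 and the builds GRCm38 and mm10 come from the submitters' processing notes, and the version, annotation and use of strand are not given in the sources used here. The labels name TRNzol for RNA extraction and the methods another kit.

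Here log2(FPKM + 1) was tested with limma 3.58.1 in R 4.3.3 after genes averaging under 1 FPKM were removed, which left 10823, with 1 mean per group, an empirical Bayes trend and Benjamini-Hochberg adjustment over all of them. A call needed an adjusted p below 0.05 together with a change over 0.5 on the log2 scale. The steps were tested on simulated data. The 9 genes, the lists and the tests were chosen with earlier results of these data known. Named were the 9 genes, Slc16a1, at most 4 called genes with the largest changes per list and comparison, the gene most like each of the 9, and markers that moved with a result, with H2-DMa named after its values were seen. The correlation of deviations of same-numbered libraries from their group means was between -0.122 and 0.0642, so numbers were not taken to pair the libraries. Alternatives were other pseudocounts, filters, scalings, fold limits, fits and each library left out. Gene models came from GENCODE vM21 and promoters from RefSeq (GRCm38.p6), read in Python 3.11.15.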

Additional observations from a re-analysis of the deposited data

How the results depend on the processing

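Calls of the 9 genes between the genotypes and in the interaction were 0 under every alternative run. Among the related lists, the P-TEFb count on day 3 moved from 0 under 4 alternatives. Those of the other bromodomain, NuA4/TIP60 and SWI/SNF lists did so under 1 each, on day 3 and in the interaction. On activation 4 of the 9 genes were called in each genotype. With a log2 limit of 1 this became 0 and 0, and with no fold limit 7 in Mb1Cre and 8 in Mct1f/fMb1Cre B cells. After median-of-ratios scaling it was 0 in Mct1f/fMb1Cre B cells, since every change then shrank below 0.5. With a common total it was 5 in Mb1Cre B cells, where Brpf1 was also called, at -0.65 (adjusted p = 5.53e-07 by limma). Leaving out single libraries gave 4 or 5 calls in Mb1Cre B cells, the latter without day 3 replicate 2, when Brpf1 was added, and 4 in Mct1f/fMb1Cre B cells. With a common total, with the median of ratios or with quantiles, 31.8%, 55.7% or 51.6% of all calls on activation in Mb1Cre B cells were higher, against 42.9% as deposited, and in Mct1f/fMb1Cre B cells 31.6%, 55.2% or 52.2%, against 41.4%.

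Some small log2 fold changes turned their direction, and none of them had been called. With the median of ratios these were Brd7 (0.14) and Brd8 (0.089) on activation in Mb1Cre, Brd2 (0.11) on activation in Mct1f/fMb1Cre, and Brd3 (0.011) and Brd7 (0.00085) between genotypes on day 0. Baz2a on day 3 was at 0.0035, 0.0096 and 0.0094 with the common total, the median of ratios and quantiles. Brd7 on activation in Mct1f/fMb1Cre B cells was at -0.17 with the common total and -0.049 with quantiles. Over the libraries left out, the genotype difference on day 3 ran from -0.030 to 0.13 for Bptf and from -0.061 to 0.044 for Baz2a. On day 0 it ran from -0.049 to 0.048 for Brd3, -0.034 to 0.012 for Brd7, -0.00024 to 0.064 for Brd8 and -0.069 to 0.016 for Bptf. The interaction ran from -0.077 to 0.020 for Brd3 and -0.0035 to 0.16 for Bptf, and the activation of Brd7 in Mct1f/fMb1Cre B cells from -0.013 to 0.027. Causes other than the scaling itself were not tested.

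With the replicate number as a block, 4 and 4 of the 9 genes were called on activation and 0 elsewhere, and Brd7 in Mct1f/fMb1Cre B cells was at -0.0012. Brd2 there no longer passed the adjusted p, at 0.0701 by limma. Day 3 replicate 3 of Mct1f/fMb1Cre, the only library with that number, does not enter the blocked comparisons. With the numbers of the Mb1Cre libraries crossed, an alternative added after the data were seen, 4 of the 9 and 6267 genes in all were called, against 6251 without a block. The 2 or 3 libraries per group limit every comparison, and the unknown depth gives no counting error.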
